A study of Mus musculus with 10 samples.

Results

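The nuclear genes that encode complexes II to V of the mitochondrial oxidative phosphorylation system were compared between hearts of mice labelled cKO and control. Members were taken by gene name: the 4 Sdh subunit genes of complex II, the Uqcr genes and Cyc1 of complex III, Cycs for cytochrome c, the Cox4 to Cox8 genes of complex IV and the Atp5 genes of complex V. Names containing -ps (pseudogenes) were left out, and a mean of at least 1 TPM (a length-corrected share of each library's transcripts, scaled to a total of 1000000) over all 10 libraries was required. This gave 47 of the 55858 genes in the table: 4 for complex II, 9 for complex III, 1 for cytochrome c, 16 for complex IV and 17 for complex V. Of 51 matching names, 4 fell below 1 TPM on average (Cox6c2, Cox7b2, Cox8c and a second row named Atp5o). All 47 passed the filter used for testing (at least 1 TPM in at least 5 of the 10 libraries).

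Each group had 5 mice, and RNA came from the whole heart at postnatal day 10. All 10 animals carried MCM, which the labels do not spell out, together with the floxed Chmp4b allele (MCM; Chmp4bF/F). The cKO mice were injected under the skin with tamoxifen at 0.1 mg/g on 2 days, starting at postnatal day 0, and the control mice were given corn oil. Tamoxifen itself and the loss of Chmp4b, a subunit of the membrane-remodelling ESCRT-III complex, cannot be told apart in this design, because no animals without MCM or without the floxed allele were in the comparison. What MCM stands for and which promoter drives it are not given in the sources used here.

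Oxidative phosphorylation passes electrons from succinate and other substrates along complexes embedded in the inner mitochondrial membrane, and complex V (ATP synthase) uses the resulting proton gradient to make ATP. Complexes III, IV and V combine subunits made from nuclear genes with a few made from mitochondrial DNA, whereas complex II is entirely nuclear. The heart is among the tissues richest in these transcripts, and around birth striated muscle exchanges the ubiquitous forms of some complex IV subunits for heart and muscle forms: Cox6a1 for Cox6a2, Cox7a2 for Cox7a1, and Cox8a for Cox8b.

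Cardiomyocyte markers were abundant in every library: 12 of 12 were detected, with summed levels of 37710 to 41889 TPM (cKO) and 38181 to 46954 TPM (control). Mitochondrially encoded RNA took 39.4% ± 2.34 of each cKO library's TPM and 55.4% ± 3.96 of each control library's (SD, n = 5), and nuclear protein-coding RNA took 52.4% ± 2.29 and 35.6% ± 3.98. TPM is closed to a fixed total, so results are given on 2 scales: TPM as deposited, and TPM divided by a size factor per library, called relative to the median gene. As deposited the median of all 13282 tested genes lay at a log2 fold change (cKO minus control) of 0.63, and relative to the median gene it lay at 0.01. Neither scale shows an amount per cell. Chmp4b, the targeted gene, stood at 36.3 to 40.0 TPM in cKO and 36.6 to 58.6 TPM in control hearts as deposited, where the groups overlapped, and at 27.7 to 31.3 against 51.4 to 69.7 relative to the median gene, where they did not. Xist was present at 47.6 to 65.9 TPM in cKO replicates 1, 5 and 7. It stood at no more than 0.120 TPM in the other 7 libraries, which included all controls. Ddx3y, a gene of the Y chromosome, stood at no more than 0.0792 TPM in those 3 libraries and at 16.7 to 32.8 TPM in the other 7. Sex was thus unbalanced between the groups. Counts of members and ratios whose calls differ without those 3 libraries are given both ways. Counts for other gene lists and for markers were not taken without them.

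In the cKO hearts 3 complex IV subunits had less of the heart isoform relative to the ubiquitous one. The ratio of heart to ubiquitous transcripts was 30.9% of the control value for Cox6a2 over Cox6a1, 42.0% for Cox7a1 over Cox7a2 and 53.1% for Cox8b over Cox8a (ratios of geometric means, n = 5 per group). Cox6a2, the heart and skeletal muscle form of subunit 6A, stood at 460, 574, 475, 669 and 523 TPM in cKO replicates 1, 3, 5, 6 and 7. In control replicates 4, 6, 8, 9 and 13 it stood at 708, 970, 828, 930 and 817 TPM, and every control library lay above every cKO library. Its ubiquitous partner Cox6a1 stood at 345, 324, 389, 370 and 508 TPM in the cKO libraries and 171, 213, 194, 193 and 169 TPM in the controls. Cox6a1 was thus higher in each cKO library than in any control library, opposite to Cox6a2. As deposited, 62.5% of all tested genes were higher in cKO hearts without overlap and 1.92% were lower without overlap. Relative to the median gene the groups overlapped for Cox6a1 and did not for Cox6a2. The mean of Cox6a2 was 540 ± 84.8 against 851 ± 103 TPM and that of Cox6a1 was 387 ± 71.9 against 188 ± 18.3 TPM (SD, n = 5 per group, cKO first). Fewer cells of a type and less RNA per cell cannot be told apart in whole-heart RNA.

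Cox7a1, the heart and muscle form of subunit 7A, stood at 248, 276, 253, 409 and 366 TPM in the cKO libraries and 404, 839, 592, 694 and 505 TPM in the controls. Only cKO replicate 6 reached above the lowest control, replicate 4. Its partner Cox7a2 stood at 478, 473, 504, 505 and 612 TPM in the cKO libraries and 388, 523, 441, 392 and 354 TPM in the controls. Cox7a2 overlapped between groups through control replicate 6, the highest control library.

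Cox8b, the heart and muscle form of subunit 8, stood at 498, 620, 507, 912 and 819 TPM in the cKO libraries and 414, 842, 578, 852 and 631 TPM in the controls. These groups overlapped almost completely. Its partner Cox8a stood at 411, 415, 503, 465 and 576 TPM in the cKO libraries and 228, 253, 258, 263 and 231 TPM in the controls. As with Cox6a1 and 62.5% of all tested genes, no control library reached the lowest cKO library as deposited. Relative to the median gene the groups overlapped for Cox8a.

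**Figure D1:**
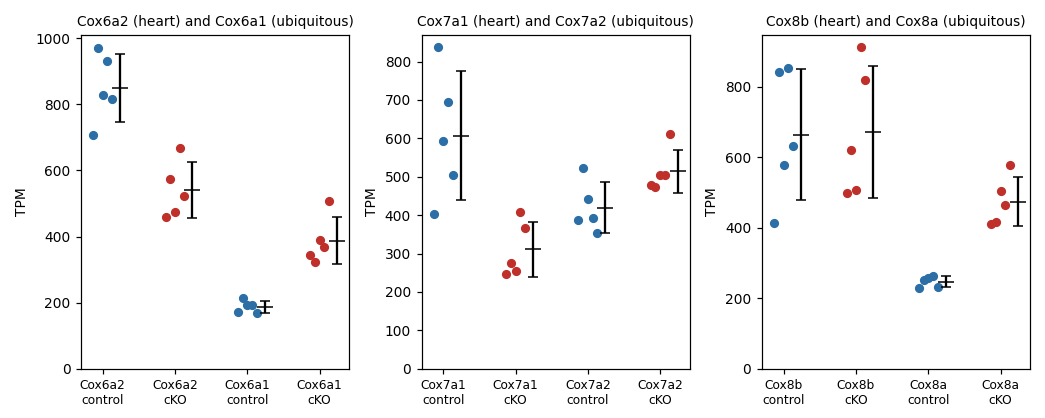
TPM as deposited of the heart and the ubiquitous isoform of 3 complex IV subunits, with 1 point per library (blue control, red cKO) and the mean and SD of 5 libraries beside them. Cox6a2 lies below every control in cKO libraries, Cox7a1 lies lower with 1 cKO library above the lowest control, Cox8b overlaps widely, and Cox6a1 and Cox8a lie above every control. On this scale 62.5% of all tested genes were higher and 1.92% were lower without overlap.

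A ratio of both isoforms within a library does not depend on the scale, and it was tested by a two-sided exact permutation test (every way of assigning 5 of the 10 libraries to a group), with Benjamini-Hochberg adjustment over 6 pairs of paralogs. The ratio of Cox6a2 to Cox6a1 was 1.43 ± 0.345 in cKO against 4.53 ± 0.314 in control hearts (SD, n = 5), a log2 difference of -1.69 ± 0.16 (SE; exact permutation p = 0.00794, the smallest possible; adjusted p = 0.0238). In words, Cox6a2 supplied 58.2% ± 5.90 of the transcripts of its pair in cKO hearts and 81.9% ± 1.04 in controls, with no overlap. The ratio of Cox7a1 to Cox7a2 was 0.603 ± 0.123 against 1.44 ± 0.277, a log2 difference of -1.25 ± 0.18 (SE; exact permutation p = 0.00794, adjusted p = 0.0238). Cox7a1 was the larger member of its pair in all 5 control libraries (51.0% to 63.9%) and the smaller one in all 5 cKO libraries (33.5% to 44.7%). The ratio of Cox8b to Cox8a was 1.42 ± 0.357 against 2.67 ± 0.647, a log2 difference of -0.91 ± 0.23 (SE; exact permutation p = 0.0159, adjusted p = 0.0238). Here the shares overlapped, at 50.2% to 66.2% in cKO and 64.5% to 76.9% in control libraries.

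In the 2 cKO libraries without Xist, the first of these pairs and the second still lay apart from the controls. Cox6a2 made up 63.9% and 64.4% of its pair in cKO replicates 3 and 6, against at least 80.6% in every control, and Cox7a1 made up 36.9% and 44.7% of its pair, against at least 51.0%. Cox8b made up 59.9% and 66.2%, which overlaps the controls. With 2 cKO libraries against 5 the log2 differences were -1.34, -1.04 and -0.61 for Cox6a2, Cox7a1 and Cox8b, and their adjusted exact permutation p-values were 0.143, 0.143 and 0.171, where the smallest unadjusted p that 2 against 5 libraries allow is 0.0476.

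**Figure D2:**
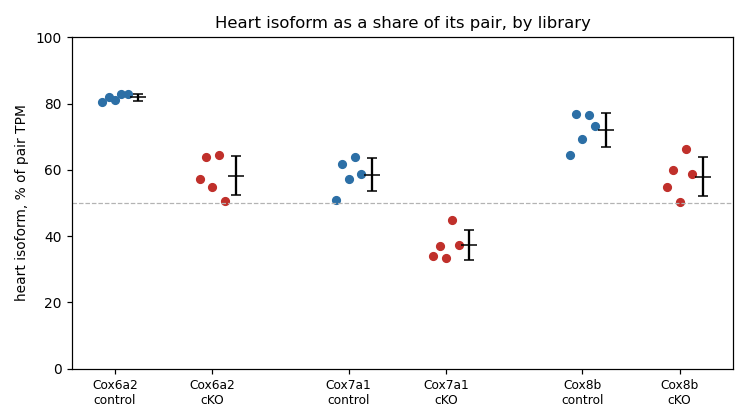
Heart isoform as a percentage of the summed TPM of its pair, by library (blue control, red cKO; bars show the mean and SD of 5 libraries; the dashed line marks equal amounts). Cox6a2 runs from 50.7% to 64.4% in cKO and from 80.6% to 82.9% in control hearts, and Cox7a1 crosses the line of equal amounts.

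In the fit across all genes (limma, Benjamini-Hochberg adjusted p), the ubiquitous forms rose as deposited: Cox6a1 by 1.03 ± 0.12 (log2, SE; adjusted p = 7.53e-06), Cox8a by 0.93 ± 0.10 (adjusted p = 4.78e-06) and Cox7a2 by 0.30 ± 0.11 (adjusted p = 0.0274). On that scale 76.5% of all tested genes rose and 3.46% fell, with a median of 0.63, so Cox7a2 lay below the median of all tested genes. The call for Cox7a2 was lost without the 3 libraries with Xist (0.23), with a Ddx3y covariate (0.26), without a filter on low values and without cKO replicate 7 or control replicate 4, 9 or 13. Relative to the median gene, Cox6a1 (0.29 ± 0.12, adjusted p = 0.0726) and Cox8a (0.19 ± 0.11, adjusted p = 0.178) were not called and Cox7a2 fell (-0.44 ± 0.10, adjusted p = 0.00422). The heart forms Cox7a1 (-0.95 ± 0.20 as deposited, -1.69 ± 0.20 relative to the median gene) and Cox6a2 (-0.66 ± 0.12 and -1.40 ± 0.13) fell on both scales, with adjusted p-values of at most 0.000627. Cox8b stood at 0.02 ± 0.22 as deposited (adjusted p = 0.932). It fell relative to the median gene (-0.72 ± 0.23, adjusted p = 0.0277), a call that was lost with a Ddx3y covariate (-0.52), without the 3 libraries with Xist (-0.46) and without cKO replicate 1, 3 or 5 or control replicate 6, 9 or 13. The direction given for Cox7a2 therefore depends on the scale, and that of the 3 ratios does not.

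The windows around the transcription starts of both kinds of isoform, other than Cox6a2, which had none matched, are shown because their CpG counts differ. They run 5′ to 3′ on the gene's strand from 250 bases before to 30 bases after the start (RefSeq, GRCm38.p6), and capitals mark matches to the motifs named after them. The heart forms come first: Cox7a1 at chr7:30183921-30184200 on the plus strand and Cox8b at chr7:140900417-140900696 on the minus strand. They are followed by the ubiquitous forms Cox7a2 at chr9:79759824-79760103, Cox8a at chr19:7217587-7217866 and Cox6a1 at chr5:115348929-115349208, all on the minus strand.
Cox7a1: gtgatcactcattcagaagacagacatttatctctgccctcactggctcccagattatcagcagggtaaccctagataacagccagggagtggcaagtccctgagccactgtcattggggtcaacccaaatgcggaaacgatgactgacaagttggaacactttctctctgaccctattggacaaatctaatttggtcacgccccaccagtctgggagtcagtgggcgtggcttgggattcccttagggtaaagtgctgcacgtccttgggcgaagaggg
Cox8b: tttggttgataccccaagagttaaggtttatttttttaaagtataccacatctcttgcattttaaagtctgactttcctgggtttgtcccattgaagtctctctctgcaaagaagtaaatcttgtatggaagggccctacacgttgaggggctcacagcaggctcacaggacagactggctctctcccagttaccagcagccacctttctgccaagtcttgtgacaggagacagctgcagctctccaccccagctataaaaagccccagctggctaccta
Cox7a2: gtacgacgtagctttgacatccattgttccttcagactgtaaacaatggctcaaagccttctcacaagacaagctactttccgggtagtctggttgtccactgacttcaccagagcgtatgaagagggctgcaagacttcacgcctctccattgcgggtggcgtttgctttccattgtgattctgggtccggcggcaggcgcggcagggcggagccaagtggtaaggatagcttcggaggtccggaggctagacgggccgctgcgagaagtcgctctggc
Cox8a: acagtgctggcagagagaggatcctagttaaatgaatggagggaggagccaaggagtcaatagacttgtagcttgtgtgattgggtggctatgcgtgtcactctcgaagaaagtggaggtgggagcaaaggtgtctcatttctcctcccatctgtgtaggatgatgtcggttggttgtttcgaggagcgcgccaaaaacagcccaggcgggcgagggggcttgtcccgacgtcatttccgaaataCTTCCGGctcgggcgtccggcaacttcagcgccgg
Cox6a1: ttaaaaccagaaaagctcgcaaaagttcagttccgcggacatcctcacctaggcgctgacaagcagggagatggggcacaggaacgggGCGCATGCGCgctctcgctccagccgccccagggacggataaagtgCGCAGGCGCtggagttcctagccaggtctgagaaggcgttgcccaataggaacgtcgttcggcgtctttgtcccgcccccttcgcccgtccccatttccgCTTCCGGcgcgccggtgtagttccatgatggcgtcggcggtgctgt
In the full 300 bases (250 before and 50 after the start), Cox7a1 and Cox8b held 7 and 2 CpG dinucleotides, and Cox7a2, Cox8a and Cox6a1 held 20, 19 and 32. The capitals in Cox8a are CCGGAAG on the opposite strand, the core of ETS factors such as GABP. Those in Cox6a1 are 2 overlapping matches to GCGCATGCG, the NRF1 motif, then a match to its relaxed form GCGCNTGCG and again CCGGAAG, both on the opposite strand. Cox7a1, Cox8b and Cox7a2 held no match to any motif searched.

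Windows were matched for 36 of the 47 members by symbol, 39 windows in all, since some genes have more than 1 start. Of these 39 windows, 7 (17.9%) held GCGCATGCG on either strand, against 1.75% of all 32851 windows. The relaxed GCGCNTGCG, which includes the former, stood in 16 (41.0%) against 6.31%. CCGGAAG stood in 13 (33.3%) against 8.86%, AAGGTCA (oestrogen-related receptors) in 5 (12.8%) against 4.72%, and AAGATGGC (YY1) in 3 (7.69%) against 2.75%. The median CpG count was 19 in the members' windows and 7 in all windows, and a CpG stands in each of the first 3 motifs. No window was matched for Atp5a1, Atp5mpl, Cox4i1, Cox4i2, Cox6a2, Cox6c, Cyc1, Sdhc, Uqcrb, Uqcrc2 and Uqcrq.

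Across all 47 members, TPM lay close to that of the controls, whereas most nuclear genes had a higher TPM in cKO hearts. As deposited, 5 rose (Cox6a1, Cox8a, Cox7a2, Cox7a2l and Cox6b2, all of complex IV), where 76.5% of all tested genes rose. In the other direction 10 fell (Sdha, Sdhb, Uqcrc1, Uqcrc2, Uqcrfs1, Cycs, Cox6a2, Cox7a1, Atp5a1 and Atp5g1), where 3.46% of all tested genes fell. The other 32 were not called, and the members' median log2 fold change was 0.00, against 0.63 over all tested genes. Groups did not overlap for 2 members that were higher (62.5% of all tested genes) and 4 that were lower (1.92%). Relative to the median gene, 0 members rose (20.8% of all tested genes rose; before adjustment limma passed 1 member, Cox6a1) and 42 fell (20.8% of all tested genes fell), with a median of -0.73 against 0.01. Groups did not overlap for 36 members that were lower (15.5% of all tested genes) and for 0 that were higher (15.8%). The counts of falls relative to the median gene were 36 without the 3 libraries with Xist and 36 with a Ddx3y covariate, and as deposited the 10 falls became 5 without those libraries. The count of 5 rises as deposited was 2 without those libraries, 2 without cKO replicate 7, control replicate 9 or control replicate 13, and 3 without cKO replicate 5 or control replicate 4.

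**Figure D3:**
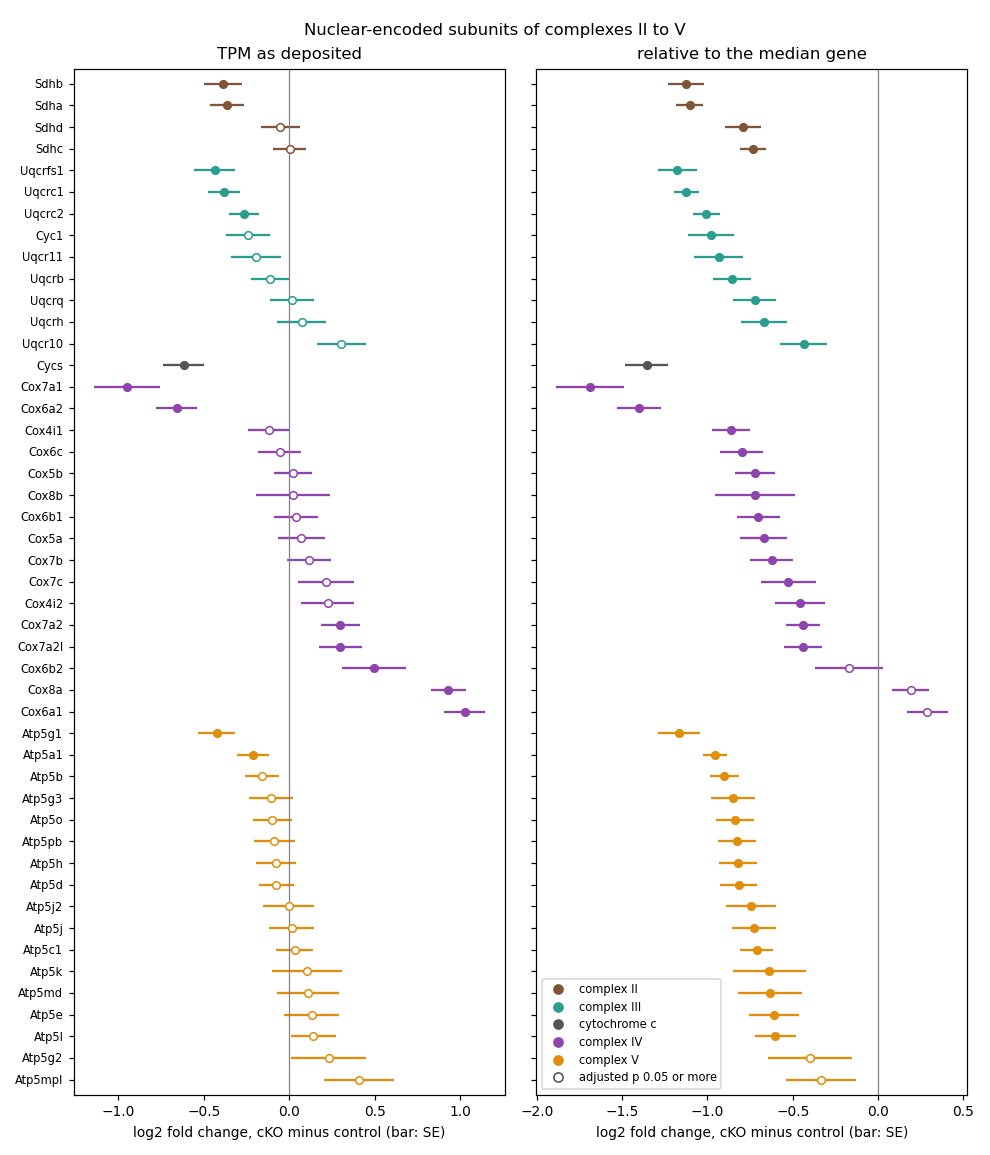
Log2 fold change (cKO minus control) with its SE for each of the 47 members, coloured by complex, as deposited on the left and relative to the median gene on the right; filled points passed an adjusted p of 0.05. On the left the members lie on both sides of 0 (-0.95 to 1.03), and on the right all but Cox6a1 and Cox8a lie below 0.

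The summed TPM of the 47 members took 5.34% to 6.995% of nuclear protein-coding TPM in cKO hearts (6.11% ± 0.697, SD, n = 5) and 8.59% to 9.96% in controls (9.16% ± 0.542). No library of either group reached into the other's range. As a share of all TPM, mitochondrial RNA included, the members took 2.80% to 3.73% and 2.75% to 4.07%, which overlap.

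**Figure D4:**
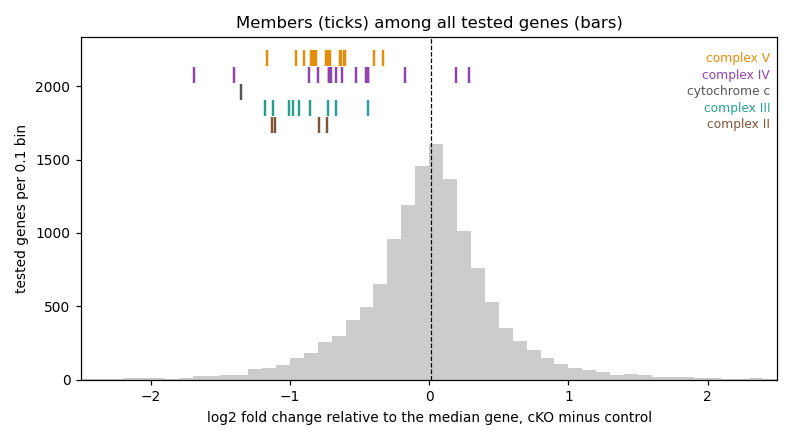
Distribution of log2 fold changes relative to the median gene over all 13282 tested genes (grey bars, number of genes per bin of 0.1; dashed line, median of 0.01), with the 47 members as ticks coloured by complex; fold changes beyond the axis are not drawn. The members' median is -0.73, and Cox6a1 and Cox8a alone lie to the right of 0.

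The 4 subunits of complex II (succinate dehydrogenase) split by role. Sdha, the flavoprotein that oxidises succinate, stood at 240, 250, 245, 281 and 243 TPM in cKO replicates 1, 3, 5, 6 and 7 and 288, 374, 353, 335 and 279 TPM in control replicates 4, 6, 8, 9 and 13. Only cKO replicate 6 lay above the lowest control. Sdhb, the iron-sulfur subunit, stood at 205, 215, 214, 249 and 267 TPM against 278, 362, 320, 294 and 255 TPM, with an overlap between cKO replicate 7 and control replicate 13. Both fell as deposited (-0.36 ± 0.10, adjusted p = 0.00389, and -0.39 ± 0.11, adjusted p = 0.00586, limma), although the call for Sdha was lost without the 3 libraries with Xist. The membrane anchor Sdhc stood at 165, 164, 180, 183 and 186 TPM against 161, 201, 197, 171 and 150 TPM. The other anchor, Sdhd, stood at 235, 269, 264, 295 and 307 TPM against 264, 338, 307, 289 and 229 TPM. Both overlapped widely between groups and were not called as deposited, at 0.00 and -0.05. All 4 fell relative to the median gene, by 1.10 (Sdha), 1.13 (Sdhb), 0.73 (Sdhc) and 0.79 (Sdhd) on the log2 scale, where 20.8% of all tested genes fell. Complex II made up 2.69% to 3.07% of the members' summed TPM in cKO hearts, below the 3.13% to 3.60% of the controls, without overlap.

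In complex III (the cytochrome bc1 complex) and cytochrome c, the catalytic and core subunits had the lowest fold changes. Cycs, the soluble carrier that takes electrons from complex III to complex IV, stood at 88.9, 114, 127, 117 and 134 TPM in cKO libraries and 190, 201, 192, 159 and 150 TPM in controls. All cKO libraries lay below all controls, and Cycs fell on both scales (-0.62 ± 0.12 as deposited, limma adjusted p = 0.000439; -1.35 ± 0.13 relative to the median gene, adjusted p = 7.3e-06). Uqcrfs1, the Rieske iron-sulfur protein, stood at 234, 266, 257, 310 and 313 TPM against 340, 451, 400, 379 and 306 TPM, where control replicate 13 was the lowest control and lay below 2 cKO libraries. It fell by 0.44 as deposited and by 1.18 relative to the median gene (log2). The core proteins Uqcrc1 and Uqcrc2 fell by 0.38 and 0.27 as deposited and by 1.12 and 1.01 relative to the median gene. As deposited, the calls for Uqcrfs1 and Uqcrc2 were lost without the 3 libraries with Xist. Cyc1, the cytochrome c1 haem protein, stood at -0.24 as deposited (adjusted p = 0.0987) and fell by 0.98 relative to the median gene.

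The small subunits of complex III lay higher. Uqcr10 stood at 959, 983, 943, 1179 and 1311 TPM in cKO libraries and 680, 1103, 890, 971 and 736 TPM in controls, with overlapping groups and a log2 fold change of 0.30 as deposited that was not called (adjusted p = 0.0647). The hinge protein Uqcrh, which helps cytochrome c dock, stood at 1045, 1133, 1089, 1293 and 1478 TPM against 1027, 1545, 1200, 1112 and 907 TPM, also overlapping (0.07 as deposited). Uqcrq (0.02), Uqcrb (-0.11) and Uqcr11 (-0.19) were not called as deposited either. The 9 subunits of complex III all fell relative to the median gene (20.8% of all tested genes fell), from -1.18 for Uqcrfs1 to -0.44 for Uqcr10. The call for Uqcr10 was lost without the 3 libraries with Xist, which left 8.

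Within complex IV (cytochrome c oxidase), the members apart from the 3 isoform pairs moved little as deposited. Cox4i1 (-0.12), Cox6c (-0.06), Cox5b (0.02), Cox6b1 (0.04), Cox5a (0.07), Cox7b (0.12), Cox7c (0.21) and Cox4i2 (0.22) were not called. Besides these, a pair of genes rose there at modest size: Cox7a2l, linked to the assembly of respiratory supercomplexes, at 198 ± 23.6 against 162 ± 30.5 TPM (0.30, adjusted p = 0.0418), and Cox6b2, a paralog of Cox6b1 known from testis, at 10.9 ± 1.98 against 7.61 ± 2.25 TPM (0.49, adjusted p = 0.0275). The groups overlapped for both, and both calls were lost without the 3 libraries with Xist, with a Ddx3y covariate and in several settings that left out 1 library. Against the median gene 13 of the 16 fell (20.8% of all tested genes fell), with a median of -0.65. Without the 3 libraries with Xist 11 fell (Cox8b and Cox7c lost the call). The 3 not called were Cox6a1, Cox8a and Cox6b2 (-0.17, adjusted p = 0.527).

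A second pair of complex IV paralogs did not pass. Cox4i2, the form of subunit 4 associated with lung and low oxygen, made up 0.914% ± 0.195 of its pair with Cox4i1 in cKO against 0.702% ± 0.0646 in control hearts (SD, n = 5). The log2 difference of the ratio was 0.36 ± 0.15 (SE; exact permutation p = 0.0476, adjusted p = 0.0571). It passed without cKO replicate 1 (0.46, exact permutation adjusted p = 0.0286) or 6 (0.42, adjusted p = 0.0381).

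In complex V, 2 of 17 subunits fell as deposited (3.46% of all tested genes fell) and the other 15 were not called (76.5% of all tested genes rose). Atp5g1, 1 of 3 genes for the rotor ring subunit c, stood at 831, 1053, 1016, 1188 and 1159 TPM in cKO libraries and 1371, 1551, 1420, 1415 and 1252 TPM in controls. The groups did not overlap (1049 ± 142 against 1402 ± 107 TPM, SD, n = 5; -0.43 ± 0.11, limma adjusted p = 0.00263; call lost without the 3 libraries with Xist). Atp5a1, the alpha subunit of the catalytic F1 head, stood at 938, 968, 945, 1011 and 949 TPM against 1013, 1268, 1232, 1138 and 962 TPM, with control replicate 13 below 2 cKO libraries. Its fall of 0.21 as deposited had a limma adjusted p of 0.0481 and was lost in most settings that left out 1 library. Without the 3 libraries with Xist neither Atp5g1 nor Atp5a1 was called as deposited.

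The 3 subunit c genes encode the same mature protein, so their transcripts can be compared as a set. Atp5g3 supplied 1573 ± 233 TPM in cKO and 1697 ± 282 TPM in control hearts, and Atp5g2 only 6.44 ± 2.18 and 5.27 ± 1.52 TPM. The ratio of Atp5g1 to Atp5g3 was 0.669 ± 0.0503 in cKO and 0.835 ± 0.0716 in control hearts, a log2 difference of -0.32 ± 0.08 (SE; exact permutation p = 0.0159, adjusted p = 0.0238). It overlapped through control replicate 6 alone, whose Atp5g1 share of 42.0% met that of cKO replicate 3. Without the 3 libraries with Xist the difference was -0.22. The ratio of Atp5g2 to Atp5g3 differed by 0.38 ± 0.36 (exact permutation p = 0.349, adjusted p = 0.349).

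Relative to the median gene, 15 of the 17 complex V genes fell, with a median of -0.74, where 20.8% of all tested genes fell. Without the 3 libraries with Xist this count was 12 (Atp5e, Atp5k and Atp5md lost the call). The 5 F1 genes lay between -0.96 (Atp5a1) and -0.61 (Atp5e), with Atp5b, the beta subunit, at -0.90. The 4 genes of the peripheral stalk, which holds the head still against the rotor (Atp5h, Atp5j, Atp5o and Atp5pb), lay between -0.84 and -0.73. Atp5j overlaps Gabpa on the opposite strand, and the strand setting of the counting is not given in the sources used here. The 5 small membrane subunits lay between -0.74 (Atp5j2) and -0.33 (Atp5mpl).

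The highest fold changes among well expressed complex V genes came from that last set. Atp5mpl stood at 1446, 1579, 1305, 1932 and 2099 TPM in cKO libraries and 754, 1799, 1236, 1484 and 1176 TPM in controls. These groups overlapped widely, and it was called on neither scale (0.41 as deposited, adjusted p = 0.083; -0.33 relative to the median gene, adjusted p = 0.222). Atp5l, a dimer-associated subunit g, stood at 1245, 1302, 1325, 1482 and 1671 TPM against 1043, 1638, 1332, 1339 and 1076 TPM (0.14 as deposited; -0.60 relative to the median gene, called lower). Atp5g2 was the other member not called relative to the median gene (-0.40, adjusted p = 0.224).

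Library by library, many members shared the highest or the lowest library of their group. As deposited, cKO replicate 7 was the highest cKO library for 34 of the 47 members and cKO replicate 1 the lowest for 33. Among controls, replicate 6 was the highest for 42, and replicates 13 and 4 were the lowest for 26 and 19. Mitochondrially encoded RNA took its lowest share of TPM in cKO replicate 7 and control replicate 6 of their groups, and its highest control shares in replicates 13 and 4. Relative to the median gene, cKO replicates 7 and 6 were the highest for 26 and 21 and cKO replicate 1 the lowest for 40. Control replicate 6 was then the highest for 35, and control replicates 13 and 4 the lowest for 16 and 14. Whether other genes share this order was not tested. The proportions between complexes III, IV and V varied little, unlike that of complex II given above: complex III made up 16.6% to 16.8% of the members' TPM in cKO and 16.6% to 17.4% in control hearts, complex IV 30.8% to 32.0% and 30.2% to 31.2%, and complex V 48.1% to 49.1% and 47.9% to 48.7%. At the level of single genes, Atp5b had the highest mean over all 10 libraries, 1660 TPM, followed by Atp5md (1637 TPM), Atp5g3 (1635 TPM) and Cox6c (1635 TPM), while Cox4i2, Cox6b2 and Atp5g2 had the lowest (11.8, 9.26 and 5.86 TPM).

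The mitochondrially encoded partners of complexes III to V were lower still. The summed TPM of mt-Co1, mt-Co2 and mt-Co3 was 6.72 to 8.05 times that of the nuclear complex IV genes in cKO and 8.43 to 12.1 times in control libraries. The ratio of mt-Cytb to the nuclear complex III genes was 3.11 to 3.91 against 3.98 to 6.28, and that of mt-Atp6 to the nuclear complex V genes 1.72 to 2.05 against 2.09 to 3.47. None of these 3 ratios overlapped between groups. They were not tested. The complex V ratio leaves out mt-Atp8, the larger of its mitochondrial transcripts. As deposited mt-Atp8 stood at 95970 to 146140 TPM in cKO and 140098 to 229955 TPM in control libraries, which overlap. With mt-Atp8 added to mt-Atp6, the complex V ratio of control replicate 6 lay below that of cKO replicate 1, so the groups overlapped. These 2 libraries held 140098 and 146140 TPM of mt-Atp8, and 19643 and 13639 TPM of the nuclear complex V genes. Relative to the median gene all 6 mitochondrially encoded genes of complexes III to V fell, where 20.8% of all tested genes fell. Their median was -1.23, from -1.29 (mt-Atp8) and -1.26 (mt-Cytb) to -1.04 (mt-Co2) and -1.03 (mt-Co3). As deposited 4 of the 6 fell, where 3.46% of all tested genes fell.

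**Figure D5:**
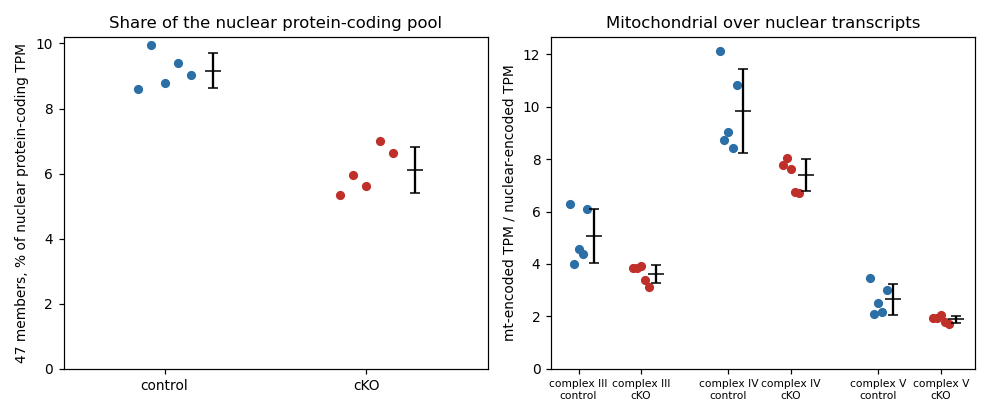
Left, summed TPM of the 47 members as a percentage of nuclear protein-coding TPM; right, ratio of mitochondrially encoded to nuclear-encoded TPM for complex III (mt-Cytb), complex IV (mt-Co1 to mt-Co3) and complex V (mt-Atp6, without mt-Atp8). Points are libraries (blue control, red cKO) with the mean and SD of 5. No pair of groups drawn overlaps, but with mt-Atp8 added the complex V ratios do.

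Other genes of the pathway gave the following counts in the same fit, where 76.5% of all tested genes rose and 3.46% fell as deposited. Relative to the median gene 20.8% of all tested genes rose and 20.8% fell. Of 36 nuclear genes for complex I, the entry point for NADH, 35 fell relative to the median gene (median -0.76), from Ndufb10 (-1.21) and Ndufs1 (-1.11) to Ndufa2 (-0.42) and Ndufa7 (-0.42). As deposited 1 of the 36 rose and 2 fell. Of 33 tested assembly factors for complexes II to V, 16 fell and 1 rose relative to the median gene (median -0.29), and 17 rose and 2 fell as deposited. The share that rose as deposited, 17 of 33, lay below the 76.5% of all tested genes. The extremes were Cmc2 (-1.25) and Taco1 (-0.99), the latter needed to translate mt-Co1, and, at the other end, Cmc1 (0.15, not called) and Cox19, a copper-handling assembly factor (0.41, adjusted p = 0.0151). Of 22 genes for other mitochondrial functions, from import to carriers and fusion, 19 fell relative to the median gene (median -0.49), with Slc25a4, the muscle ADP/ATP carrier, at -1.05 and Chchd3 at -0.85, and the import receptors Tomm70a (-0.04) and Tomm20 (0.07) not called.

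A list of 17 regulators held regulators of respiratory genes together with Higd1a, Higd2a and Atpif1, whose proteins act on the complexes themselves. Of the 17, 8 fell relative to the median gene (median -0.42), where 20.8% of all tested genes fell, and 9 were not called. As deposited 8 rose and 2 fell, where 76.5% of all tested genes rose and 3.46% fell. Higd1a and Higd2a were among the falls relative to the median gene, and Atpif1 among the rises as deposited. Ppargc1a, the coactivator PGC-1alpha, stood at 13.8, 15.9, 14.6, 14.8 and 12.8 TPM in cKO libraries and 29.3, 24.0, 58.6, 56.3 and 51.5 TPM in controls. Every cKO library lay below every control, and Ppargc1a fell by 1.46 as deposited and by 2.17 on the second scale (limma adjusted p = 5.24e-05 and 2.17e-05). Control replicate 6, the highest control for 42 members as deposited, was the lowest control for Ppargc1a. A link between Ppargc1a and the members was not tested. Ppara, the fatty-acid nuclear receptor, fell by 0.74 and 1.33 on these scales. Yy1 (0.07) and Pprc1 (0.25) were not called relative to the median gene. Nrf1, named for its motif after its values were seen, rose as deposited (0.67) and was not called relative to the median gene (0.05).

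Markers of cell types gave the following counts. Over all tested genes 76.5% rose and 3.46% fell as deposited, and relative to the median gene 20.8% rose and 20.8% fell. Set against the median gene, 12 of 12 cardiomyocyte markers fell, whereas as deposited 4 fell, 1 rose and 7 were not called (relative to the median gene: median -0.92, summed level on that scale 27335 to 35028 for cKO, 52896 to 55879 for control). Macrophage markers rose in 12 of 12 on both scales, with a summed level of 468 to 698 TPM against 81.1 to 114 TPM. Fibroblast markers rose in 9 of 9 as deposited and 8 of 9 relative to the median gene (2439 to 3100 against 941 to 1392 TPM), and endothelial markers fell in 10 of 10 relative to the median gene and were not called as deposited. Skeletal muscle uses the same heart and muscle isoforms. Of its 10 markers Myh4, Actn3 and Pvalb averaged under 1 TPM in both groups, and the summed level (463 to 711 against 869 to 1303 TPM) was mostly Ckm (488 against 982 TPM on average), which the heart also expresses. As deposited, 2 of the 7 tested skeletal muscle markers rose and 1, Ckm, fell (median 0.31), and relative to the median gene 2 fell (median -0.24). Of 8 smooth muscle and pericyte markers 4 rose as deposited, whereas against the median gene 4 fell and 1 rose (median -0.36). The 5 tested erythroid markers were called on neither scale (1737 to 9049 against 3445 to 5922 TPM summed), and the 10 lymphocyte and thymus markers did not pass the filter. The part of cell composition in the members' differences was not tested.

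Set against the summed cardiomyocyte markers, a measure added after the data had been seen and not tested, the members as a whole did not separate the groups. Their summed TPM was 80.2% ± 7.16 of the marker sum in cKO against 77.4% ± 5.90 in control hearts (SD, n = 5). The marker sum itself overlapped between groups (37710 to 41889 TPM in cKO, 38181 to 46954 TPM in control), so these percentages largely follow the deposited TPM. As deposited, Cox6a2, Cox6a1, Cox8a, Cycs and Atp5g1 already had no overlap, whereas Cox7a1 and Cox7a2 overlapped. On that scale 62.5% of all tested genes were higher and 1.92% lower without overlap. The share of all genes that separate the groups against the marker sum was not taken. Against the marker sum, Cox6a2 stood at 1.35% ± 0.169 against 2.02% ± 0.153 and Cox7a1 at 0.775% ± 0.150 against 1.42% ± 0.285, lower without overlap. Cox6a1 (0.972% ± 0.163 against 0.446% ± 0.00731), Cox7a2 (1.29% ± 0.120 against 0.992% ± 0.0797) and Cox8a (1.19% ± 0.150 against 0.587% ± 0.0304) were higher without overlap, and Cox8b overlapped (1.67% ± 0.400 against 1.56% ± 0.369). Cycs (0.291% ± 0.0374 against 0.424% ± 0.0478) and Atp5g1 (2.63% ± 0.259 against 3.33% ± 0.153) were lower without overlap. The ubiquitous isoforms are also expressed by non-muscle cells, whose markers rose in part, and the share of these cells in the isoform ratios was not tested.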

How the data were processed

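RNA of 10 whole hearts was sequenced from total RNA libraries (per the labels' protocols, RNeasy extraction and the Vazyme VAHTS V10 kit). The authors deposited 1 table of TPM values, with gene names and IDs, in which each library sums to 1000000. The submitters' processing notes name, with no role or order, STAR 2.7.1, HTSeq 0.11.2, Trimmomatic 0.32, DESeq2 1.22.2, Picard 1.96, FastQC 0.11.7, bcl2fastq and build mm10. Annotation release, gene lengths and strand setting are not given in the sources used here. TPM keeps no depth, so the reads behind a value are unknown and no counting interval is given.

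Groups and replicate numbers came from the sample titles. Nothing in the labels beyond 5 mice per group describes litters, and no 2 libraries held identical values. Genes with at least 1 TPM in at least 5 libraries (13282) were tested as log2(TPM + 1), which understates changes of low genes, with limma 3.58.1 in R 4.3.3 (moderated variance with trend, two-sided, Benjamini-Hochberg adjusted p under 0.05 over all tested genes). The second scale divides TPM by each library's size factor (median of ratios over 16393 genes), which was 1.20 to 1.38 in cKO and 0.697 to 0.843 in control libraries. The fit was tested on simulated data. Isoform ratios used log2 of the TPM ratio in each library. Gene IDs of 51460 genes (92.1%) matched GENCODE M21 on GRCm38, including all 47 members. Of 12 names with -ps, 1 (Cox7c-ps1) averaged at least 1 TPM. Reads of near-identical copies could be split between a member and its pseudogenes, in a way not stated.

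Per-library values were given for the 6 heart and ubiquitous isoforms and, in each of complexes II, III (together with Cycs), IV and V, for the 2 lowest and 2 highest fold changes relative to the median gene among members with a mean of at least 10 TPM. From other lists the 2 lowest and 2 highest were named. The members, lists and tests were chosen with earlier results of these data known. Alternatives varied the pseudocount, filter, scaling, variance model, library weights, a Ddx3y covariate and each library in turn. Leaving out the 3 cKO libraries with Xist was added after seeing the data. Python 3.11.15, numpy 2.4.6, pandas 2.3.3, scipy 1.17.1 and matplotlib 3.10.9 were used.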

Additional observations from a re-analysis of the deposited data

Results flagged for a closer look

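Of 106 groups of 5 libraries examined, 3 held a library far from the other 4, where chance would flag about 1 in 20. Sdha stood at 281 TPM in cKO replicate 6, against 240 to 250 TPM in the other cKO libraries. Cox6b2 stood at 7.54 TPM in cKO replicate 1, against 11.2 to 12.6 TPM. Cox7a2 stood at 612 TPM in cKO replicate 7, against 473 to 505 TPM. In each case the gap to the nearest library exceeded 0.71 of the group's range.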

How the results depend on the processing

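None of the ratios, the members' fold changes relative to the median gene or the members' calls as deposited changed sign under any alternative run. The 32 members not called as deposited were not checked for a change of sign. The count of members that rose as deposited (5) was 2 without a filter on low values, 2 with a Ddx3y covariate and 2 without the 3 cKO libraries with Xist. It ran from 2 to 7 when 1 library was left out and was 2 or 3 without cKO replicate 5 or 7 or control replicate 4, 9 or 13. Those that fell as deposited (10) were 5 without the libraries with Xist, and 9 to 11 with 1 library left out. Relative to the median gene, members that rose (0) were 2 after rescaling TPM over nuclear protein-coding genes (Cox6a1 0.47, Cox8a 0.37), 1 with upper-quartile scaling (Cox6a1 0.34), and 0 to 1 with 1 library left out (Cox6a1 without cKO replicate 1 or 3). Members that fell (42) ran from 36 to 42 over all alternatives. All genes called relative to the median gene (5529, 2763 higher and 2766 lower) were 3195 without the libraries with Xist. The split was 4505 higher and 1792 lower over nuclear protein-coding genes, and leaving out 1 library gave 4714 to 5296 calls. As deposited, 10620 genes were called, and 9906 to 10549 with 1 library left out.

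With the median in place of the mean as the statistic, the exact permutation test gave an adjusted p of 0.0571 for the ratios of Cox6a2 (-1.77), Cox7a1 (-1.29), Cox8b (-0.94) and Atp5g1 (-0.28), and the cause was not tested. Without the libraries with Xist these were -1.34 (adjusted p = 0.143), -1.04 (0.143), -0.61 (0.171) and -0.22 (0.171), where the smallest unadjusted p is 0.0476. The Cox4i2 ratio passed with TPM + 1 (0.34, exact permutation adjusted p = 0.0476), without cKO replicate 1 (adjusted p = 0.0286) and without cKO replicate 6 (0.0381). With 1 library left out the log2 differences ran from -1.79 to -1.58 (Cox6a2), -1.36 to -1.17 (Cox7a1), -1.04 to -0.80 (Cox8b), 0.26 to 0.46 (Cox4i2), -0.37 to -0.28 (Atp5g1) and 0.11 to 0.57 (Atp5g2). No paired analysis was possible because the groups share only 1 replicate number, 6. Depth is unknown, so the precision of low members such as Atp5g2 and Cox6b2 rests on the spread between libraries alone.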
